A study of Mus musculus with 21 samples.

Results

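Wild-type C2C12 cells kept for 5 days under methionine restriction were compared with wild-type cells kept for the same time in control medium, by where H3K36me3 was called along gene bodies. The comparison rests on 4 libraries of the 20 whose peak lists were provided, 2 from restricted cells and 2 from control cells. C2C12 is a line of mouse myoblasts, the dividing precursors of muscle fibres. The groups used are wild-type day 0, wild-type day 1 in control or restricted medium, and wild-type day 5 in control or restricted medium, with 2 libraries each. The labels name no agent or allele beside the medium, and do not give the culture conditions of day 0. C2C12 is 1 cell line, so the groups differ in culture and not in donor. The labels number the replicates but do not call them separate cultures, so p-values measure only the spread between these samples, which may be technical.

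H3K36me3 is trimethylation of lysine 36 of histone H3. The enzyme SETD2 lays it down while travelling with elongating RNA polymerase II, so the mark lies over the bodies of transcribed genes and is weak at their starts. SETD2 takes the methyl group from S-adenosylmethionine, which cells make from methionine. C2C12 myoblasts leave the cell cycle, switch on MYOG and fuse into myotubes when they differentiate.

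Cover is the percent of a gene's body, start to end as annotated by RefSeq, that lies inside called peaks, and a difference in cover is given in percentage points, restricted minus control. Of 21631 protein-coding genes on chromosomes 1 to 19 and X, 19190 were at least 2 kb long, and 9514 of these had a mean cover of at least 5% over the 10 wild-type libraries and were tested. Cover tells where peaks were called, not how much of the mark was there. The depth per library is unknown, the Drosophila spike-in named in the protocol was not used here, and a lower depth cannot be told apart from less of the mark.

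Of 5 myoblast markers, Cdh15, Des and Itga7 had cover in all 4 libraries, Myf5 was at 0 in all 4, and Myod1 had 66.8% and 78.4% in control and 0 in both restricted libraries. Their summed cover was 325 to 344 in control and 191 to 193 under restriction, against 332 to 340 at day 0. All 7 markers of differentiated muscle had cover in both control libraries, with a summed cover of 607.6 to 629.6, against 213.3 to 238.0 under restriction and 61.2 to 81.5 at day 0. Ttn alone made up the day 0 sum, and it had 96.9% and 96.6% in control and 93.5% and 93.4% under restriction. Of 5 fat cell markers only Pparg had any cover, at most 4.46%, and Cebpa, Fabp4, Adipoq and Plin1 were at 0. Sp7, Bglap and Acan, markers of bone and cartilage, were at 0, whereas Runx2 fell from 23.3% and 20.8% to 10.3% and 11.7% and Sox9 from 64.3% and 54.3% to 40.5% and 41.5%. The summed cover of these 5 markers was 75.1 to 87.6 in control and 50.8 to 53.2 under restriction. The part of other cell types in the results was not tested.

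Restricted cells had a smaller marked territory. The covered length was 183 Mb and 171 Mb in the control libraries and 131 Mb and 134 Mb in the restricted ones, and the number of peaks was 87398 and 87266 against 63608 and 63422. Groups did not overlap in either measure, but an exact permutation test of 2 against 2 libraries cannot give a p below 0.333, which is what it gave (two-sided). Control territory, the 144.9 Mb inside peaks in both control libraries, was kept in both restricted libraries over 62.5% of its length and was outside peaks in both over 21.8%. Replicates also differed: 79.0% of the first control library lay inside the second and 84.8% of the second inside the first, against 61.1% to 65.2% of a control library inside a restricted one. The length shared by a pair of libraries over the length covered by either was 0.692 and 0.697 for replicates and 0.553 to 0.575 across media. Restricted libraries held 5.01 Mb in common that neither control library had, 4.60% of their shared 109 Mb. When every list was cut to the same covered length, keeping its peaks of highest fold, 14.7 Mb was gained (15.9%) and 16.3 Mb lost (18.2%), and with peaks of a −log10 q of at least 3, 8.85 Mb was gained (10.6%) and 25.5 Mb lost (25.2%). Lost stretches were many and short, 65718 with a median length of 335 bases, and 92.4% of their length lay inside protein-coding gene bodies, against 94.4% of the gained stretches. Of the covered length of each control library, 95.5% lay inside gene bodies of any type, a wider set that is not the same measure.

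Across genes the change was mostly downward, with a smaller set going the other way. Cover fell at 3945 genes, 41.5% of those tested, and rose at 411, 4.32% (limma, adjusted p below 0.05). The median difference over all tested genes was -9.16 points. Restricted and control libraries did not overlap at any called gene; over all tested genes they did not overlap at 6224 lower and 1323 higher ones. In the lists cut to the same covered length, 110 Mb, called equal-length lists from here on, the median difference was -0.87 points, and 1285 genes rose (15.4% of 8329 tested) while 1683 fell (20.2%). This cut kept peaks down to a fold of 3.18 and 3.17 in the control libraries and 2.79 and 2.86 in the restricted ones. It thus removed more of the control lists, and a rise in equal-length lists can come from control peaks cut away. With only peaks of a deposited −log10 q of at least 3, 610 genes rose (7.46% of 8181) and 2287 fell (28.0%). Centring each library on its median gene moved every difference up by 16.7 points, to a median of 7.52, and gave 3757 higher (39.5%) and 1395 lower (14.7%) genes. Every list median given below is thus 16.7 points higher after centring, and the all-gene shares of each setting are those to read the lists' counts against. Of the genes called in both the deposited and the equal-length lists, 1922 of 1958 had the same sign. Leaving out 1 library reduced the higher genes to 246 without control replicate 1, 249 without control replicate 2, 219 without restricted replicate 1 and 206 without restricted replicate 2, and the lower genes to 2553 without control replicate 1.

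The fall was larger than the all-gene median at nearly every group of muscle genes. Myogenic transcription factors and their partners, the proteins that switch muscle genes on, fell at 10 of 12 tested members and rose at none, with a median of -32.0 points. With equal-length lists they fell at 4 of 8, with a median of -27.6, and after centring at 7 of 12 with 2 higher. The 2 that were not called were Eya1 and Eya4, at 2.73 and -4.01 points. In these bulk samples, fewer differentiated cells and less of the mark per cell cannot be told apart.

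Myog encodes myogenin, the factor that commits myoblasts to differentiate. Its cover was 91.7% and 93.4% in the control libraries and 0 in both restricted ones, a difference of -92.6 ± 3.16 points (standard error, n = 2 and 2; limma adjusted p = 1.9e-06). It was also 0 in both day 0 libraries. At 0 no peak was called over the gene, so these values do not compare the amount of the mark between restricted cells and starting myoblasts. Myod1, the factor that defines the myoblast lineage, had 66.8% and 78.4% in control, 0 in both restricted libraries and 55.1% and 50.1% at day 0. Unlike Myog it was marked before differentiation, and its restricted libraries lay below day 0. Myod1 was under the 5% minimum of mean cover in equal-length lists and so has no value there.

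Tead4, a TEA-domain factor that binds muscle promoters, had 84.7% and 82.1% in control and 23.6% and 23.0% under restriction. Day 0 libraries stood between them, at 44.5% and 52.7%. The MEF2 factors, partners of myogenin, all fell, with differences of -33.0 points at Mef2a, -30.9 at Mef2c and -23.2 at Mef2d. Mef2c had no cover in any day 0 or day 1 library and reached 35.97% and 29.8% in control at day 5, against 1.99% and 1.89% under restriction. Of its body, 35.8% overlaps other genes, and it was under the minimum of mean cover both in equal-length lists and with peaks of a −log10 q of at least 3. Six4, a homeodomain factor, fell by 29.0 points. Tcf12, which encodes a dimer partner of the myogenic factors, fell by 14.3 points. Six4 was not called without control replicate 1 (limma adjusted p = 0.0501), nor Tcf12 without any 1 of the 4 libraries (up to 0.0866), and with equal-length lists Mef2d and Tcf12 were not called. After centring, Mef2d, Six4 and Tcf12 were not called.

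**Figure D1:**
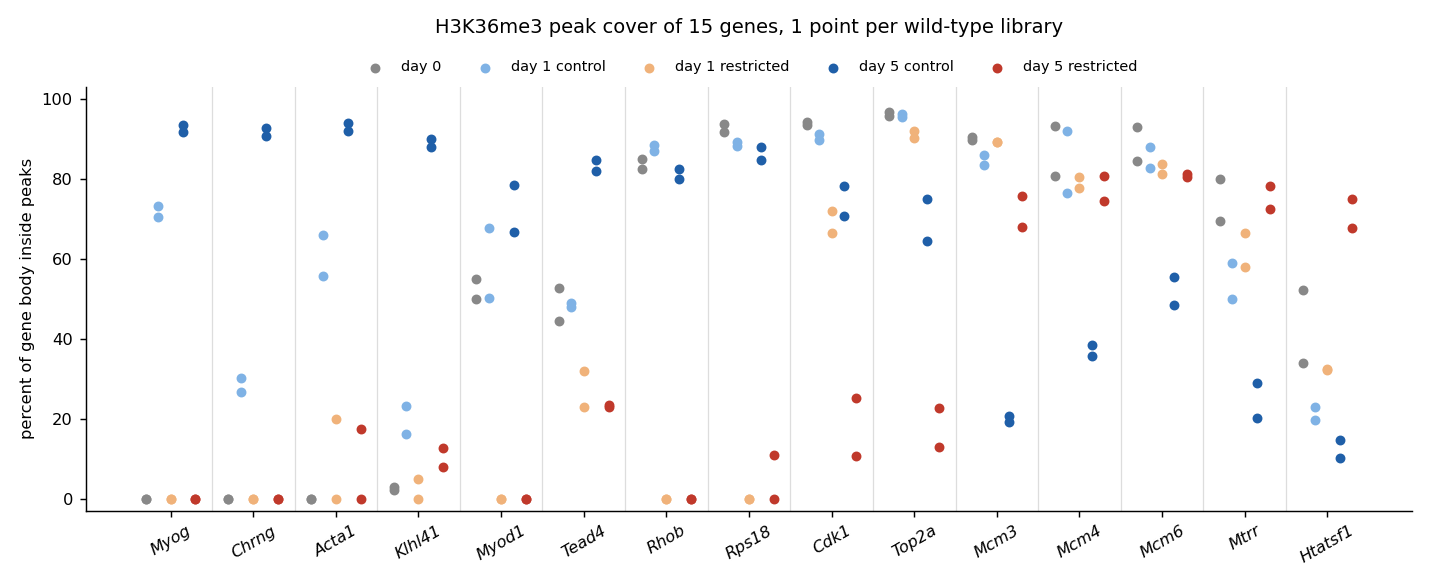
Percent of the gene body inside H3K36me3 peaks (vertical axis) for 15 genes (horizontal axis), with 1 point per wild-type library and 5 groups of 2 libraries by colour. Myog, Chrng, Acta1 and Klhl41 on the left lie between 0 and 17.3% at day 0 and under restriction at day 5 and above 88% in control at day 5, while Mcm3, Mcm4, Mcm6 and Mtrr stand higher under restriction than in control.

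Sarcomere proteins, the contractile machinery, fell at 37 of 39 tested genes and rose at none, with a median of -42.7 points; after centring 27 fell and 1 rose. Mean cover over these genes was 13.2% and 14.1% at day 0, 74.8% and 68.9% in control at day 5, and 27.6% and 30.2% under restriction. Restricted cells stood above day 0 and below control in both libraries. Acta1, the skeletal alpha-actin, had 92.1% and 94.1% in control and 0% and 17.3% under restriction, a difference of -84.5 ± 7.61 points (standard error, n = 2 and 2; limma adjusted p = 7.9e-05). Klhl41, a kelch protein that stabilises the sarcomere, had 90.1% and 88.1% against 7.85% and 12.7%. Its restricted libraries were slightly above the 2.83% and 2.18% of day 0. Mybph, a myosin-binding protein, had 99.6% and 97.8% against 0% and 3.94%, and 25.9% of its body overlaps other genes. Tnnt2, the embryonic and cardiac troponin T, differed from these in that myoblasts already carried it, with 39.5% and 43.0% at day 0, 89.3% and 90.4% in control and 19.3% and 15.4% under restriction.

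Genes of calcium release and excitation coupling fell at 14 of 15 tested members, with none higher and a median of -42.6 points; after centring 11 fell and 2 rose. Casq1, calsequestrin of the sarcoplasmic reticulum, had no cover in any library of day 0 or day 1. At day 5 it had 72.0% and 62.5% in control and 0 in both restricted libraries (limma adjusted p = 5.3e-06), and 37.9% of its body overlaps other genes. Jsrp1, a junctional protein, had 75.6% and 72.8% against 0% and 12.5%, and Cacng1, a subunit of the muscle calcium channel, 69.8% and 71.2% against 14.6% and 19.4%. Jph2, which holds the reticulum to the surface membrane, fell by 61.1 points over its body of 61.8 kb.

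Acetylcholine receptor and synapse genes fell at 7 of 10 members and rose at none, with a median of -28.7 points. With equal-length lists 5 of 10 fell, with a median of -18.3, and after centring 6 fell and 1 rose, with -11.99. Chrng, the gamma subunit of the fetal receptor, had 90.7% and 92.9% in control and 0 in both restricted libraries, a difference of -91.8 ± 2.85 points (standard error, n = 2 and 2; limma adjusted p = 1.9e-06). It had 0 at day 0 and 26.6% and 30.3% at day 1 in control medium. Chrnd, the delta subunit, was marked throughout, with 75.2% and 75.7% at day 0, 85.2% and 81.9% in control and 35.8% and 34.8% under restriction. Dok7, the adaptor that activates the kinase MuSK at the synapse, fell by 33.9 points.

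Fusion and membrane genes fell at 13 of 16 members, with a median of -21.5 points. With equal-length lists 8 of 15 fell, with a median of -15.5, and after centring 7 of 16 fell and 2 rose, with -4.80. Mymk, which encodes the fusogen myomaker, had 82.5% and 82.2% in control and 23.3% and 25% under restriction, from 0 at day 0. Cav3, the muscle caveolin, had 44.0% and 53.3% in control and 0 in all other groups, and was under the minimum of mean cover in equal-length lists and with the stricter peaks of a −log10 q of at least 3. Des, the desmin intermediate filament, had 84.7% and 88.8% against 43.9% and 42.6%. Jam3, an adhesion molecule, was the 1 member that rose, from 4.67% and 5.33% to 11.95% and 11.2% (limma adjusted p = 0.013, and up to 0.0772 without control replicate 1 or restricted replicate 1 or 2), and was under the minimum of mean cover with the stricter peaks.

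Glycolysis, glycogen and creatine kinase genes fell at 19 of 22 members, with a median of -32.6 points; after centring 13 fell and 2 rose. Eno2, an enolase, had 87.5% and 81.4% in control, 0 in both restricted libraries and 0% and 12.3% at day 0. Ckm, the muscle creatine kinase, had 79.0% and 60.6% against 11.4% and 3.65%; 37.7% of its body overlaps other genes. Tpi1, triose phosphate isomerase, and Gapdh, which is marked in every control library, fell by 76.0 and 71.6 points; Gapdh has 2 named pseudogenes that could share reads. Phka1, the X-linked muscle subunit of phosphorylase kinase, was the 1 member that rose, by 8.17 points (limma adjusted p = 0.012, and 0.0799 without restricted replicate 2; under the minimum of mean cover in equal-length lists and with the stricter peaks).

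Promoter windows of 6 genes are printed to set muscle genes beside replication genes: Myog, Chrng, Acta1 and Klhl41, which had little or no cover under restriction, and Mcm3 and Mcm6, which had more than control. Each is 300 bases long, from 250 before the start of the gene, 5′ to 3′, from RefSeq on GRCm38.p6. Capitals mark matches, on either strand, to CAGCTG, an E-box sequence that myogenic factors bind, to CTATATTTA, letters of the MEF2 site chosen from the Myog window itself, to the CArG box of serum response factor, and to TTTGGCGC, a site of E2F factors. No match overlapped another in these windows.
Myog (chr1:134289754-134290053, plus strand): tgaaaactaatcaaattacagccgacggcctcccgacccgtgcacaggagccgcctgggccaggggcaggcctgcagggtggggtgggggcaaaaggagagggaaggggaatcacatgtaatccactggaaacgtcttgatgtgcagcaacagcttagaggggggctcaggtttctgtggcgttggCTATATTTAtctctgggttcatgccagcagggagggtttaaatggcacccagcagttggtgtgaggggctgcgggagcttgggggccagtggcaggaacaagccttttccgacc
Chrng (chr1:87205561-87205860, plus strand): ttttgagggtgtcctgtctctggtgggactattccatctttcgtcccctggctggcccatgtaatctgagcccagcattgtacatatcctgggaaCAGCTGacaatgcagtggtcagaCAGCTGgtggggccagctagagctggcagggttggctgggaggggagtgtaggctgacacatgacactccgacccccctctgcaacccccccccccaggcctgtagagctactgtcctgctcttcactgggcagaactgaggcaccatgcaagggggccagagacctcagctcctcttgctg
Acta1 (chr8:123894726-123895025, minus strand): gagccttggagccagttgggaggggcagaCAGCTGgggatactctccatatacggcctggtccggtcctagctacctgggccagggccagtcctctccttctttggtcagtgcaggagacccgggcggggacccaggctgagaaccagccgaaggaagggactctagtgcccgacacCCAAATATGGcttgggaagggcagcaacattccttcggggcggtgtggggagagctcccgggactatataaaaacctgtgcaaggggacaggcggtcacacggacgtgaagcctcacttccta
Klhl41 (chr2:69669870-69670169, plus strand): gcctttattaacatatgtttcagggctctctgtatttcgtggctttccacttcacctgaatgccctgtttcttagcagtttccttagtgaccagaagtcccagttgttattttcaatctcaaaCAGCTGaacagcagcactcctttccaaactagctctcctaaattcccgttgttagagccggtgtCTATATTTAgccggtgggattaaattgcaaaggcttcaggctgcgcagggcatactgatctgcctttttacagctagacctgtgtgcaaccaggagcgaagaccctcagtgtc
Mcm3 (chr1:20820263-20820562, minus strand): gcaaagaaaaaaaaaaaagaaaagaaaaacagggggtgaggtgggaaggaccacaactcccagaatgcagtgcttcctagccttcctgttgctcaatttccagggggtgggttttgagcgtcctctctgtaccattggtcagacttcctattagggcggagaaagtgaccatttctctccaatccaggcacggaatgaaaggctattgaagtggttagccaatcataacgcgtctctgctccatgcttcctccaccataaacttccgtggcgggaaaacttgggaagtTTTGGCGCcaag
Mcm6 (chr1:128359656-128359955, minus strand): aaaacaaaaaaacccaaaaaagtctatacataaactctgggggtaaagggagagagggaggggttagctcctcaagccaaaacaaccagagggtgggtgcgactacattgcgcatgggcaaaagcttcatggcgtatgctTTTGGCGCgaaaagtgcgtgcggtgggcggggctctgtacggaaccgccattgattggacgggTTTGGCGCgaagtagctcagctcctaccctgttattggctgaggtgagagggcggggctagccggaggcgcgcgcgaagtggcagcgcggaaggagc
CAGCTG occurred 2 times in Chrng and once in Acta1 and Klhl41, and it was in 16.4% of all 32619 promoter windows. CTATATTTA occurred in Myog and Klhl41 and in 0.196% of all windows. The CArG box was in Acta1 and in 1.64% of all windows, and TTTGGCGC was in Mcm3 and Mcm6 and in 0.518%. Over windows of genes whose cover fell, 16.4% held CAGCTG and 1.01% TTTGGCGC. Over windows of genes whose cover rose the shares were 11.1% and 1.23%, and over windows of all tested genes 14.9% and 1.02%. The motifs were chosen after the sequences had been seen, and binding was not measured.

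DNA replication and mitosis genes, which dividing myoblasts use together, parted under restriction. Replication genes (origin licensing, helicase, polymerases and nucleotide reduction) rose at 9 of 46 tested members (19.6%, against 4.32% of all tested genes) and fell at 3, with a median of 3.36 points. With equal-length lists 19 of 45 rose and none fell, where 15.4% of all genes rose, and after centring 35 of 46 rose and 1 fell, with a median of 20.03, where 39.5% of all genes rose. Mitosis genes (kinases, spindle, condensin and centromere) fell at 25 of 45 (55.6%, against 41.5% of all tested genes) and rose at none, with a median of -17.2 points. With equal-length lists 6 of 44 fell and 2 rose, with a median of -0.06, where 20.2% of all genes fell, with a median of -0.87. By share and median the mitosis genes thus did not fall more than all genes there. After centring 13 of 45 fell and 9 rose, with -0.51, where 14.7% of all genes fell and 39.5% rose. Mean cover of the replication genes was 36.6% and 33.8% in control and 40.2% and 39.9% under restriction, while that of the mitosis genes was 35.8% and 33.3% against 15.7% and 16.7%. Replication minus mitosis within a library was 0.797 and 0.564 points in control and 24.6 and 23.2 points under restriction, the widest of the 10 libraries. At day 0 it was -2.53 and -0.285 points, and at day 1 it lay between -7.05 and -2.94 in both media. The exact permutation test at day 5 gave p = 0.333 (two-sided), the smallest that 2 against 2 allows. The gap was 18.5 and 18.7 points in the restricted libraries when only peaks with a deposited −log10 q of at least 3 were kept, and 21.9 and 20.2 points with equal-length lists. This contrast of lists was chosen after the data had been seen.

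**Figure D2:**
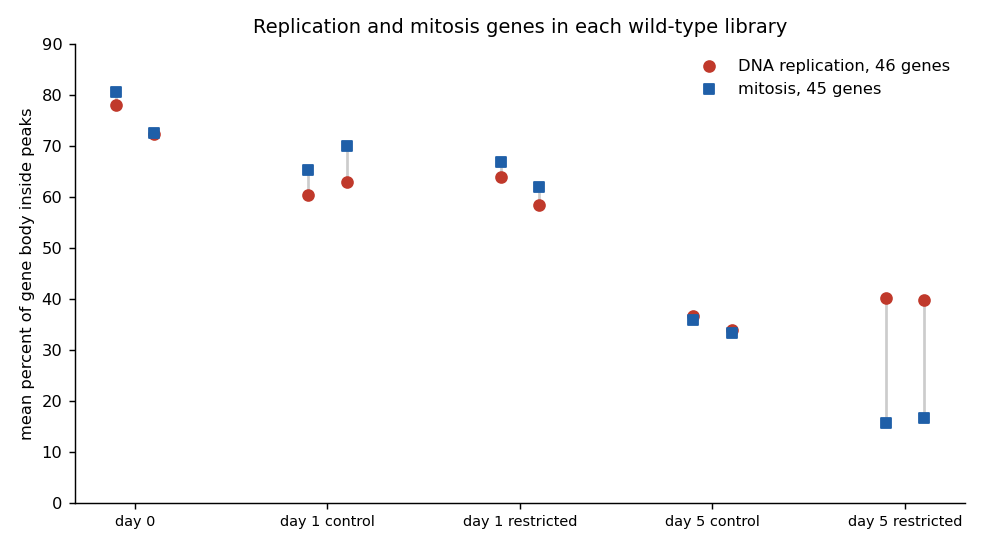
Mean percent of the gene body inside peaks (vertical axis) over 46 DNA replication genes (circles) and 45 mitosis genes (squares) in each of the 10 wild-type libraries, grouped by day and medium (horizontal axis). The lists lie within 7.05 points of each other in every group but restricted day 5, where replication genes stand near 40% and mitosis genes near 16%.

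Subunits of the MCM helicase, which unwinds DNA at origins, were among the replication genes that rose. Mcm3 had 20.6% and 19.1% in control, 75.7% and 68.1% under restriction and 90.6% and 89.8% at day 0, a difference of 52.1 ± 3.29 points (standard error, n = 2 and 2; limma adjusted p = 1.6e-05). Mcm4 had 35.8% and 38.5% against 74.4% and 80.7% and Mcm6 55.4% and 48.4% against 80.6% and 81.2%, with day 0 libraries between 80.7% and 93.3% in both genes. At all 3 the restricted libraries of day 5 lay below both day 0 libraries and above both control libraries of day 5. Rfc3, a subunit of the clamp loader, rose by 28.5 points. The 3 replication genes that fell were Pola2, a subunit of DNA polymerase alpha, by 31.5 points, the sliding clamp gene Pcna by 18.9 and the licensing inhibitor gene Gmnn by 17.4. Pcna has 2 named pseudogenes. None of these 3 was called with equal-length lists, where Pola2 was at 0.762 points, and the limma adjusted p reached 0.0836 for Pcna (not called without control replicate 1 or restricted replicate 1 or 2) and 0.188 for Gmnn (not called without control replicate 2 or restricted replicate 1 or 2). After centring Pcna was at -2.20 and Gmnn at -0.71 points, and neither was called.

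At mitotic genes the restricted libraries went below control. Cdk1, the kinase that drives entry into mitosis, had 78.2% and 70.8% in control and 10.7% and 25.2% under restriction, from 93.6% and 94.4% at day 0. Top2a, the topoisomerase that separates chromosomes, had 75.0% and 64.4% against 12.9% and 22.7%, and Anln, the anillin of the dividing furrow, 59.2% and 53.6% against 6.82% and 7.29%. All 3 had at least 89.7% at day 0, above either medium at day 5. Aurka, the kinase of spindle poles, fell by 46.05 points. With equal-length lists the differences were -15.6, -0.411 and -4.62 points at Cdk1, Top2a and Aurka, none of them called, and -18.4 at Anln, which was.

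DNA repair genes rose at 6 of 30 members (20%, against 4.32% of all tested genes) and fell at 3, with a median of 3.44 points. With equal-length lists 8 of 27 rose and 1 fell, with a median of 3.86, after centring 25 of 30 rose and none fell, with 20.1, and with peaks of a −log10 q of at least 3 the median was 0.67. Helq, a helicase of crosslink repair, had 28.9% and 34.3% in control, 74.4% and 75.4% under restriction and 89.96% and 84.7% at day 0. Nbn, of the complex that senses breaks, had 40.7% and 32.9% against 64.4% and 65.1% (limma adjusted p = 0.0073, and 0.0517 without control replicate 2). The checkpoint kinases Chek1 and Atm rose by 33.9 and 27.6 points (limma adjusted p = 0.028 and 0.018; 20.8, not called, and 38.5 at day 1), and were not called without any 1 of the 4 libraries, with adjusted p up to 0.145 and 0.0875. Neither was called with peaks of a −log10 q of at least 3, nor Chek1 with equal-length lists. Hus1, a subunit of the checkpoint clamp, had 33.6% and 30.4% against 70.1% and 70.2%. CDK inhibitors and pocket proteins, which hold cells out of the cycle, fell at 5 of 7 members with a median of -24.0 points, but at 1 of 6 with a median of -0.40 with equal-length lists, and at 2 of 7 with -7.32 after centring. Among them was Cdkn1b, from 67.4% and 46.5% to 0 in both libraries. Ccnd1, in the same list, encodes cyclin D1 and promotes the cycle; it went from 63.0% and 57.6% to 11.4% and 4.10% but was at 0 difference with equal-length lists.

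Short regulator genes had the lowest list median of all. Immediate early and short regulators fell at 20 of 22 members (16 after centring), with a median of -46.5 points, and their mean cover was 63.2% and 60.9% in control and 14.5% and 14.7% under restriction. Rhob, a small GTPase, had 79.9% and 82.6% in control and 0 in both restricted libraries; Btg1, an antiproliferative factor, had 80.1% and 86.1% against 0% and 6.26%; and Snai1, a zinc finger repressor, 86.7% and 86.3% against 19.5% and 0%. All 3 were marked at day 0, at 78.7% to 98.2%, unlike Myog, Chrng and Acta1, which were at 0 there. Cytosolic ribosomal protein genes fell at 52 of 67 members and rose at none, with a median of -29.4 points, while after centring 25 fell and 4 rose with a median of -12.7, and Rps18 went from 88.0% and 84.8% to 0% and 10.9%, although it has 5 named pseudogenes that could share reads. Splicing factors of the SR and hnRNP families fell at 17 of 30 members, with a median of -16.4 points that turned to 0.30 after centring, where 5 fell and 3 rose; Srsf1 had 66.8% and 70.0% against 12.7% and 7.91%. The median length of these lists is 3.65 kb, 3.55 kb and 10.99 kb, against 24.0 kb for the sarcomere genes.

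**Figure D3:**
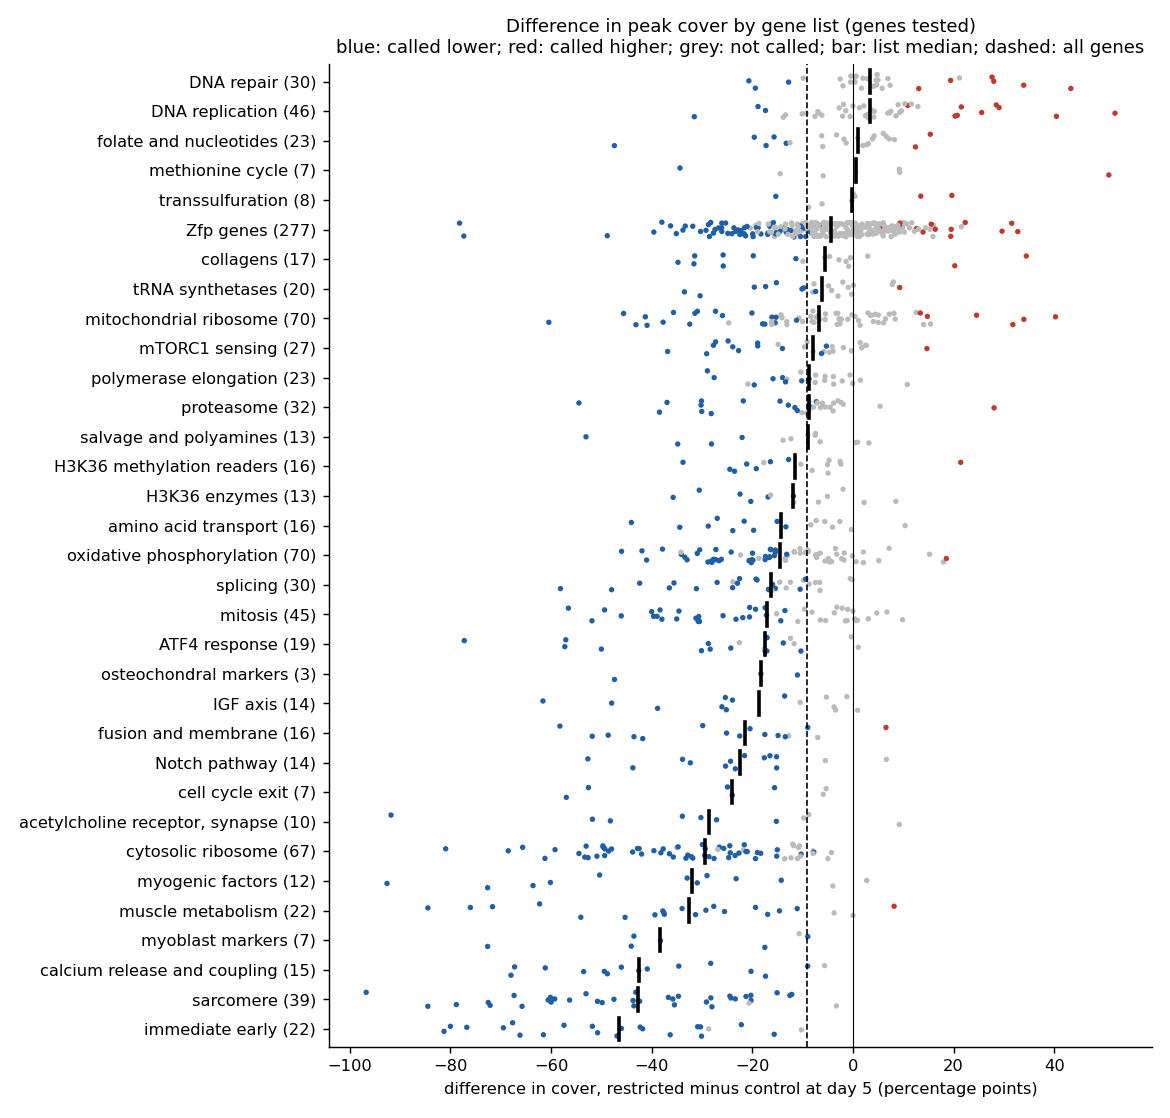
Difference in cover, restricted minus control at day 5, in percentage points (horizontal axis) for the tested members of 33 gene lists (vertical axis, number tested in brackets), 1 point per gene, blue where called lower, red where called higher and grey otherwise. Black bars are list medians and the dashed line is the median of all tested genes, -9.16 points; muscle and short regulator lists lie left of it and replication and repair lists right of it.

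Genes that make and use methionine gave few calls in the deposited lists and more under other scalings. The methionine cycle turns methionine into S-adenosylmethionine, releases homocysteine after methylation and remakes methionine from it. Of 13 listed genes 7 were tested; 1 rose and 1 fell, and the median was 0.53 points, where 4.32% of all tested genes rose and 41.5% fell. With equal-length lists 3 rose and 1 fell, with a median of 5.26, and after centring 5 rose and 1 fell, with 17.2. Mtrr, which reactivates methionine synthase, had 28.9% and 20.1% in control, 78.2% and 72.5% under restriction and 80.04% and 69.5% at day 0, a difference of 50.8 ± 5.71 points (standard error, n = 2 and 2; limma adjusted p = 2.3e-04). Mmachc, which processes the cobalamin cofactor, had 48.8% and 44.7% against 11.7% and 13.1%. Methionine synthase itself, Mtr, had 80.9% and 76.1% against 87.2% and 88.4%, and Ahcy, which cleaves S-adenosylhomocysteine, 52.2% and 51.1% against 62.2% and 59.4%. Neither was called (limma adjusted p = 0.15 and 0.085), although the groups did not overlap, and both were called higher with equal-length lists, at 35.8 and 59.5 points. The equal-length cut removed more of the control lists than of the restricted ones, so these 2 values do not bear out the uncalled differences. Mat2a and Mat2b, the subunits of the enzyme that makes S-adenosylmethionine, had 87.7% and 85.7% against 73.6% and 71.0% and 51.4% and 55.6% against 53.6% and 54.4%, and neither was called.

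Salvage and polyamine genes fell at 4 of 13 members (30.8%, under the 41.5% of all tested genes), with a median of -8.96 points that became 4.02 with equal-length lists and 7.72 after centring. Oaz1, the antizyme of ornithine decarboxylase, went from 78.9% and 61.1% to 19.5% and 14.4%. Transsulfuration and glutathione genes, which lead homocysteine to cysteine, rose at 2 of 8 and fell at 1, with a median of -0.10 points that was 12.2 with equal-length lists, where 3 of 6 rose, and 16.6 after centring, where 6 of 8 rose. Gclm, a subunit of the first enzyme of glutathione synthesis, rose from 13.1% and 7.06% to 32.6% and 26.8%. Folate and nucleotide genes rose at 2 of 23 and fell at 5, with a median of 0.95 points. This balance turned round with equal-length lists, where 9 of 23 rose and 2 fell with a median of 14.6 points, against 15.4% and 20.2% of all genes. After centring 14 of 23 rose and 1 fell, against 39.5% and 14.7% of all genes. Gart, of purine synthesis, and Mthfd1, of the cytosolic folate cycle, rose by 15.4 and 12.4 points, with a limma adjusted p up to 0.0896 for Gart (not called without control replicate 2 or restricted replicate 1 or 2) and 0.0881 for Mthfd1 (not called without the same libraries). Gart was also not called with peaks of a −log10 q of at least 3. Aldh1l2, of the mitochondrial folate cycle, fell from 55.1% and 54.4% to 8.03% and 6.68%, was at -8.82 points and not called with equal-length lists, and overlaps other genes over 56.5% of its body.

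The transcription factor ATF4 drives genes of the response to missing amino acids. ATF4 targets fell at 13 of 19 tested members (68.4%, against 41.5% of all tested genes) and rose at none, with a median of -17.6 points. With equal-length lists 4 of 17 fell, with a median of -2.78, and after centring 4 fell and 2 rose, with -0.91. Ddit4, an inhibitor of mTORC1, had 82.1% and 72.4% in control and 0 in both restricted libraries, and Chac1, which degrades glutathione, 70.9% and 70.9% against 0% and 27.6%. Eif4ebp1, the repressor of translation initiation, had 70.5% and 69.4% against 19.6% and 20.2% but was not called with equal-length lists, at -23.8 points. Amino acid transporters fell at 9 of 16 members, with a median of -14.2 points that turned to 2.48 with equal-length lists, where 2 of 13 fell, and to 2.47 after centring, where 5 rose and 3 fell. Slc38a2, a neutral amino acid carrier, had 92.5% and 92.4% against 63.2% and 64.2%, and Slc7a1, the cationic carrier, 64.9% and 58.8% against 25.6% and 29.3%, with -3.74 points and no call with equal-length lists. Genes of mTORC1 and amino acid sensing fell at 12 of 27 (44.4%) and rose at 1 (3.70%), close to the 41.5% and 4.32% of all tested genes, with a median of -7.91 points that was -0.28 with equal-length lists and 8.76 after centring; the riser was Mios, of the GATOR2 complex, with 32.9% and 38.7% against 49.0% and 52.0% and a limma adjusted p of up to 0.156 without control replicate 1 or restricted replicate 1 or 2. Cytosolic tRNA synthetases fell at 8 of 20 (40%), close to the share of all tested genes, with a median of -6.14 points that was 10.5 after centring. Sars, which charges serine tRNA, fell by 33.5 points, and Rars, which charges arginine tRNA, was the 1 riser, at 9.29 points. Rars was not called with equal-length lists, nor without control replicate 1 or restricted replicate 1 or 2 (limma adjusted p up to 0.122).

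The enzymes of the mark itself fell at 6 of 13 tested members (46.2%) and rose at none. Their median was -11.8 points, which turned to 4.85 after centring, and 41.5% of all tested genes fell. Setd2 had 82.8% and 78.4% in control and 55.6% and 60.7% under restriction, a difference of -22.4 ± 5.21 points (standard error, n = 2 and 2; limma adjusted p = 0.0084). Its day 0 libraries, at 78.0% and 65.6%, lay between the groups, and it was not called without control replicate 1 or restricted replicate 1 (limma adjusted p up to 0.0651), nor with peaks of a −log10 q of at least 3, nor after centring, where it was at -5.76 points. Kdm2a, a demethylase of lower methylation states of the same lysine, had 87.9% and 85.6% against 49.7% and 52.3%. Kdm4b, which removes the trimethyl mark, had 76.7% and 74.1% against 44.1% and 45.6%, whereas its relatives Kdm4a and Kdm4c were at -1.97 and -5.06 points and not called; with equal-length lists Kdm4c was called higher, at 10.3 points. Kdm2b fell by 11.8 points but was at 1.01 with equal-length lists and 4.85 after centring, and called under neither. Among the NSD enzymes, which add the dimethyl mark, Nsd3 fell by 20.3 points (-3.63 and not called after centring) and Nsd1 by 16.9 (-0.20 and not called after centring), the latter with a limma adjusted p up to 0.2 without any 1 of the 4 libraries, and Nsd2 was at -6.87 points and not called. Ash1l was at -11.8 points, Smyd2 at 2.21, Kdm8 at 8.52 and Riox1, all of whose body overlaps other genes, at -16.4, and none of these 4 was called.

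Readers of H3K36 methylation fell at 7 of 16 members (43.75%), close to the 41.5% of all tested genes, and rose at 1, with a median of -11.6 points that was 5.11 after centring. Morf4l1, the MRG15 chromodomain reader, had 78.9% and 78.2% against 42.5% and 47.1%. Brpf3, a PWWP-domain subunit of acetyltransferase complexes, rose from 62.7% and 56.3% to 78.0% and 83.8%, and 54.7% of its body overlaps other genes. Polymerase II elongation factors fell at 8 of 23 (34.8%, under the share of all tested genes), with a median of -8.73 points that was 7.94 after centring, and Ccnt1, the cyclin of the P-TEFb kinase, had 91.7% and 90.4% against 61.4% and 62.9%, with no call in equal-length lists.

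Other pathways of differentiating muscle were mixed. Notch genes fell at 12 of 14 members, with a median of -22.5 points, but at 4 of 13 with a median of -5.49 with equal-length lists and at 3 of 14 with -5.79 after centring. Hes1, a target of the pathway, went from 63.5% and 41.8% to 0 in both libraries, and Heyl, another target, from 53.6% and 41.4% to 2.32% and 5.21%, with -5.49 points and no call with equal-length lists. Insulin-like growth factor genes fell at 8 of 14, with a median of -18.8 points, at 3 of 13 with -12.5 with equal-length lists, and at 3 of 14 with 4 higher and -2.09 after centring. Trim63, a ubiquitin ligase of muscle, had no cover at day 0 or day 1, 88.8% and 80.3% in control at day 5 and 27.7% and 18.1% under restriction, and Igfbp5, a binding protein of the growth factors, 85.3% and 84.5% against 49.0% and 43.1%. Irs1, the insulin receptor substrate, had 70.3% and 57.3% against 12.7% and 19.03%, with no call in equal-length lists. Collagens fell at 7 of 17 tested chains (41.2%), close to the 41.5% of all tested genes, and rose at 2, with a median of -5.60 points that was 11.1 after centring. The 2 that rose were the adjacent basement membrane genes Col4a1, from 7.01% and 5.53% to 41.0% and 40.4%, and Col4a2, from 7.80% and 7.11% to 28.8% and 26.6%. Both had more than 50% cover at day 0, and 32.4% of Col4a1 and 13.5% of Col4a2 overlap other genes.

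Mitochondrial ribosomal protein genes, unlike the cytosolic ones, moved both ways, with 6 higher and 19 lower of 70 and a median of -6.72 points. With equal-length lists this turned round, to 19 higher and 6 lower of 66 and a median of 10.4 points, where 15.4% of all genes rose and 20.2% fell. After centring 30 of 70 were higher and 7 lower, where 39.5% of all genes rose and 14.7% fell, so all genes turned round there too. Mrpl46 rose from 26.9% and 39.1% to 76.2% and 70.3%, and Mrpl52 fell from 67.4% and 53.5% to 0 in both libraries, with a difference of 0 under equal-length lists. Subunits of oxidative phosphorylation fell at 33 of 70 (47.1%, against 41.5% of all tested genes), with a median of -14.5 points that was 2.22 after centring, and the 1 riser was Ndufa9 of complex I, from 63.2% and 72.2% to 86.4% and 86.1% (limma adjusted p = 0.0656 without control replicate 1). Proteasome subunits fell at 14 of 32 (43.75%), close to the 41.5% of all tested genes, with a median of -8.76 points that was 7.92 after centring; Psmb4 went from 69.1% and 59.4% to 19.5% and 0%, and the 1 riser, Psmd10, is X-linked and went from 24.9% and 15.1% to 50.4% and 45.7%, with 34.6% of its body overlapping other genes. The zinc finger genes named Zfp rose at 14 of 277 and fell at 63 (22.7%), with a median of -4.30 points. This balance also turned round, to 43 higher and 22 lower of 249 and a median of 2.88 with equal-length lists, where 15.4% of all genes rose and 20.2% fell. After centring 150 of 277 were higher and 11 lower, where 39.5% of all genes rose and 14.7% fell. Zfp281, a regulator of pluripotency genes, fell by 77.3 points and was not called with equal-length lists.

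Outside the lists, the largest falls included Purb, a single-strand DNA-binding repressor, from 80.7% and 92.7% to 0% and 5.20%. It was near 90% at day 0, and with equal-length lists it was at -11.8 points and not called. Bhlhe41, a circadian repressor, went from 83.3% and 82.5% to 0 in both libraries, Vamp2, a vesicle fusion protein, from 82.7% and 74.9% to 0, and the sugar transporter gene Slc2a6 from 87.7% and 77.2% to 6.55% and 0%. Slc2a6 had no cover at day 0, while Bhlhe41 and Vamp2 were marked there. Among the largest rises were Htatsf1, a splicing and elongation cofactor, from 10.2% and 14.7% to 67.7% and 75.0%, Cep135, a centriole protein, from 23.5% and 29.9% to 61.9% and 65.0%, and Grwd1, a histone-binding factor of ribosome assembly, from 49.3% and 29.1% to 75.9% and 76.5%. Cep135 and Grwd1 had 65.8% to 83.3% at day 0, so the restricted libraries stood near the day 0 level and control below it.

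Relative to control, the mean loss of cover over all tested genes was graded along the gene body in the deposited lists. In 7711 tested genes with a known strand, mean cover of the 10% of the body nearest the start was 10.2% in control and 3.82% under restriction, which left 37.4% of the control cover. At the third 10% it was 39.2% against 23.8%, leaving 60.6%, and at the ninth 69.0% against 60.2%, leaving 87.3%. Genes under 10 kb (1813) did not follow this from the start, with 60.0% left in the first 10%, 29.2% in the second and 33.1% in the third. In points the loss over all 7711 genes was not graded from the start, with -6.40 in the first 10%, -15.5 in the third and -8.78 in the ninth. With equal-length lists 59.9% was left in the first 10%, and from the seventh on restricted cover was above control, with 52.9% against 50.4% in control at the ninth. In genes of at least 20 kb (4189), cover from 2 to 3 kb after the start was 23.1% and 19.6% in the control libraries and 5.99% and 6.40% under restriction, and from 19 to 20 kb 50.8% and 48.3% against 40.0% and 40.9%. The latter direction turned with equal-length lists, to 32.8% and 33.7% in control against 35.3% and 35.6% under restriction. The ratio of cover in the part of the body before its midpoint to that after it was 0.560 and 0.537 in control and 0.416 and 0.420 under restriction, with 0.557 in both day 0 libraries. The direction was the same with equal-length lists, 0.483 and 0.460 against 0.394 and 0.395. The exact permutation test gave p = 0.333 (two-sided), the smallest that 2 against 2 allows. Gene by gene, limma on the difference between these parts called 1053 of 7711 genes with a more negative change before the midpoint than after it and 642 with the opposite; this counts genes that gained cover too. This excess was not seen with peaks of a −log10 q of at least 3, where the counts were 539 and 549, and leaving out any 1 of the 4 libraries gave 412 to 630 and 318 to 415, both lowest without restricted replicate 1.

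Short genes lost more of their cover than middling ones. Genes of 2 to 5 kb had a median difference of -20.5 points and fell at 53.8%, genes of 20 to 50 kb -7.34 points and 38.3%, and genes of 200 kb and over -7.97 points and 55.9%. Control cover left under restriction was 51.0%, 82.5% and 61.1% in these classes. With equal-length lists the medians ran from -13.5 points at 2 to 5 kb to 1.98 points at 100 to 200 kb, and the class of 200 kb and over was at -1.66; the medians were above 0 between 20 and 200 kb and below 0 in the shorter classes and the longest. Position and length were looked at after the data had been seen.

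**Figure D4:**
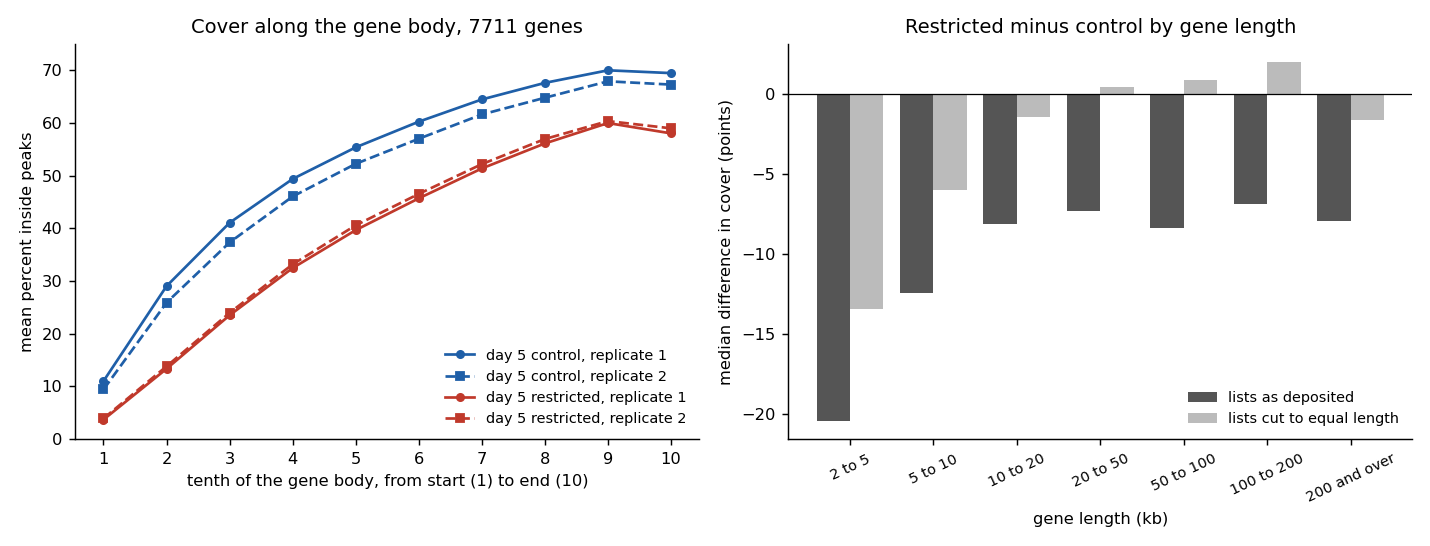
Left, mean percent inside peaks (vertical axis) in each 10% of the gene body from start to end (horizontal axis) for 7711 genes, 1 line per day 5 library. Right, median difference in cover in points (vertical axis) by gene length in kb (horizontal axis), for deposited lists and lists of equal length; the restricted lines of the deposited lists run below control with the widest ratio near the start, and the 2 to 5 kb class has the lowest median.

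The X chromosome stood apart from the autosomes. Its 245 tested genes had a median difference of 0.0989 points, with 22.4% higher and 22.0% lower, while the medians of the 19 autosomes ran from -14.1 points on chromosome 11 to -5.50 on chromosome 13, with 3.84% of autosomal genes higher and 42.0% lower. With equal-length lists the X median was 11.8 points, with 37.9% of 169 genes higher and 8.88% lower, against a median of -1.11 on the autosomes. Mean cover of X genes was 30.7% and 27.2% in control and 26.8% and 28.4% under restriction; that of autosomal genes was 52.3% and 49.5% against 38.4% and 39.0%. The X to autosome ratio of these means was 0.586 and 0.549 in control and 0.700 and 0.728 under restriction, and 0.771 and 0.657 at day 0. The day 0 values were 0.539 and 0.589 with equal-length lists and 0.786 and 0.773 at a −log10 q of at least 3. Across media the ratio was compared in the same 3 settings. It did not overlap between media at day 5 in deposited lists, in equal-length lists (0.402 and 0.439 against 0.743 and 0.777) or at a −log10 q of at least 3 (0.457 and 0.488 against 0.601 and 0.669). The exact permutation p was 0.333 (two-sided), the smallest possible. At day 1 the ratio went the other way in deposited lists, from 0.594 and 0.641 in control to 0.527 and 0.523 under restriction. So it did at a −log10 q of at least 3 (0.506 and 0.542 against 0.348 and 0.321), but not with equal-length lists (0.575 and 0.574 against 0.563 and 0.616). The median difference at day 1 was not lower on the X, at -6.32 points against -8.02 on the autosomes, and 3.38 against -3.60 with equal-length lists. In the deposited lists, an exact permutation test that swaps the media within each day gave p = 0.0556 for the difference between the days, the smallest that 36 arrangements allow, and 0.333 after Benjamini-Hochberg adjustment over 6 such library measures. Among X genes, Htatsf1 is described above, Cstf2, a factor of 3′ end processing, rose from 21.4% and 14.3% to 55.2% and 59.0%, and Gripap1, an endosomal protein, from 30.6% and 16.9% to 60.1% and 65.2%, with no call at a −log10 q of at least 3. Yy2, a zinc finger factor whose body overlaps other genes in full, rose from 20.5% and 15.8% to 44.6% and 72.1%, and was under the minimum of mean cover with the stricter peaks. The X comparison was chosen after the data had been seen, and the copy number of the X in this line was not measured here.

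**Figure D5:**
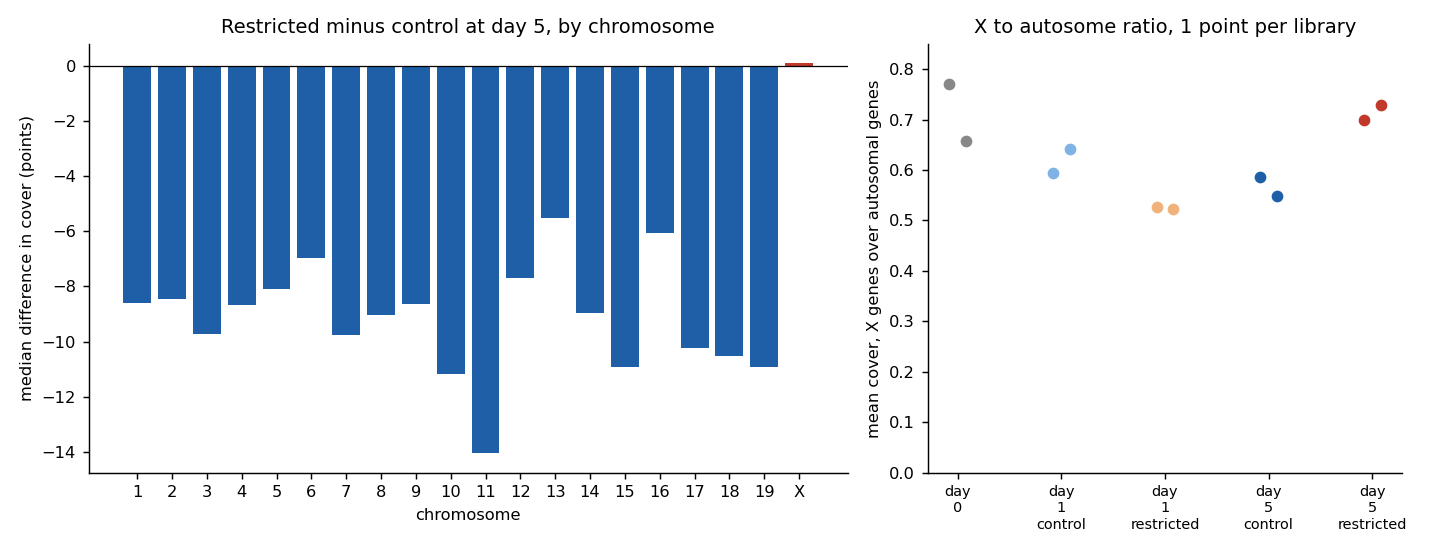
Left, median difference in cover in points, restricted minus control at day 5 (vertical axis), for the tested genes of each chromosome (horizontal axis). Right, mean cover of X genes divided by that of autosomal genes (vertical axis) in each wild-type library by group (horizontal axis); the restricted day 5 libraries, at 0.700 and 0.728, lie above the control day 5 libraries, at 0.586 and 0.549.

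Day 1 showed which of the day 5 changes were already present. No library is in both comparisons. Of the 4356 genes called at day 5, 2593 (59.5%) were also called at day 1, against 38.3% of all tested genes, and 2574 of them had the same direction on both days. By direction, 2498 of the 3945 lower genes (63.3%) were also lower at day 1, against 35.97% of all tested genes, and 76 of the 411 higher genes (18.5%) were also higher, against 2.38% of all tested genes, and 14 lower. These were 73.0% of the 3422 genes lower at day 1 and 33.6% of the 226 higher ones. The difference between the directions was not tested. DNA repair genes rose at 14 of 30 members at day 1, with a median of 17.5 points, against 6 and 3.44 at day 5; the difference between days was called lower at 2 of them and higher at none. Short regulators were low at both days: Rhob went from 88.7% and 87.0% to 0 at day 1, and the immediate early list had a median of -52.5 points at day 1. Sarcomere genes had a median of -15.1 points at day 1, when control cells had 27.03% and 25.4% mean cover, and -42.7 at day 5. The restriction effect itself differed between the days, tested as an interaction in limma, at 154 genes that were higher at day 5 (1.62% of those tested) and 341 that were lower (3.58%), including 20 of the 39 sarcomere genes. With equal-length lists these were 342 genes (4.11%) and 245 (2.94%). The higher count was 82 without control replicate 2, 71 without restricted replicate 1 and 40 without restricted replicate 2, and the lower count 177 and 175 without restricted replicate 1 or 2.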

How the data were processed

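H3K36me3 ChIP-seq peak lists of 10 wild-type C2C12 libraries were used; those of 10 knockout libraries were not used here, and the labels do not name the gene knocked out. Per the labels' protocols, the chromatin received a Drosophila spike-in, and reads were single-end, 75 nt. The authors deposited 1 broad-peak list per library with 9 columns, on GRCm38 per the submitters' processing notes. The peak caller, its control and the read filters are not given in the sources used here. Each peak's score, fold enrichment (a ratio), −log10 p-value and −log10 q-value are as the authors deposited them; they only filtered or ranked peaks within a list. The lists give no depth, so no counting interval is given.

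Peaks on chromosomes 1 to 19 and X were merged per library, and cover was computed over RefSeq GRCm38.p6 gene bodies (strand from the RefSeq promoter table, known for 17274 genes; symbols in older form matched through synonyms). Genes of at least 2 kb and a mean cover of at least 5% were fitted with limma 3.58.1 (R 4.3.3; trend and robust) over 10 libraries in 5 groups, with Benjamini-Hochberg adjustment at 0.05. Library values had exact permutation tests (scipy 1.17.1). Equal-length lists kept the peaks of highest fold until they covered the 110 Mb of the shortest list. A gene is called marked at 50% cover. Genes were named by rule: the 15 largest called differences in each direction, up to 4 called members per list and direction, and all tested members of 3 lists; the text gives part of these, and some results are not reported here. The comparison, the gene lists and the rule were chosen with earlier results of these data known. Alternatives were other peak filters, scalings, gene filters and left-out libraries.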

Additional observations from a re-analysis of the deposited data

Results flagged for a closer look

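The effect of restriction differed between day 5 and day 1, by a limma test of the difference itself (adjusted p below 0.05), at 154 genes in the upward direction (1.62% of 9514 tested) and 341 in the downward direction (3.58%). Values here are the day 5 effect minus the day 1 effect, in points of cover. Among muscle genes it was -20.7 at Myog, -30.9 at Mef2c, -39.2 at Tead4, -55.4 at Mybph, -61.6 at Klhl41, -37.5 at Jsrp1, -67.2 at Casq1, -63.4 at Chrng, -48.6 at Cav3, -60.5 at Ckm and -61.6 at Trim63. Eno2 and Slc2a6 had -79.7 and -76.3. Control cover at day 1 was 0 in both libraries at Mef2c, Casq1, Cav3 and Trim63, which had 29.8% to 88.8% in the control libraries of day 5.

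Of 45 mitosis genes 6 had a lower effect at day 5 and none a higher one, against 3.58% and 1.62% of all tested genes. Among them were Cdk1 with -35.2, Top2a with -47.0, Anln with -46.4 and Aurka with -36.1. Aldh1l2, not a mitosis gene, also had a lower effect, with -37.3. Of 46 replication genes 4 had a higher effect at day 5 and none a lower one, against 1.62% and 3.58% of all tested genes. They were Mcm3 with 47.6, Mcm4 with 45.6, Mcm6 with 31.9 and Pcna with 32.8. Pcna fell on both days, but by less at day 5. So did the Notch target Heyl, which is not on that list, with 30.8 (-74.6 points at day 1 and -43.7 at day 5). Other genes with a higher effect at day 5 were Mtrr with 43.1, Col4a1 with 38.9, Col4a2 with 30.0, and Grwd1 with 41.2, and the X-linked genes Htatsf1 with 47.9, Gripap1 with 57.6 and Yy2 with 55.1.

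In the deposited lists the X to autosome ratio of cover rose with restriction at day 5 and fell at day 1, a difference between the effects of 0.239. No library of either medium crossed the other on either day. With equal-length lists the day 1 libraries overlapped, at 0.575 and 0.574 in control against 0.563 and 0.616 under restriction, so the fall at day 1 was not seen there.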

How the results depend on the processing

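Direction held for covered length, number of peaks, number of marked genes, the X to autosome ratio, the ratio of cover before and after the midpoint, and the gap between replication and mitosis under every alternative run for them (left-out libraries, stricter peaks at −log10 q 3 or more and, except for length and number of peaks, equal-length lists). Their tests cannot pass a threshold at 2 against 2. Genes with higher cover numbered 1285 with equal-length lists, 3757 after centring and 206 to 249 with 1 library left out. Genes with lower cover numbered 2287 at a −log10 q of at least 3, 1683 with equal-length lists, 1395 after centring and 2553 to 3330 with 1 library left out. Genes with a higher effect at day 5 than at day 1 numbered 314 at a −log10 q of at least 3, 342 with equal-length lists, 242 after centring, 86 at a mean cover of at least 20% and 40 to 104 with 1 library left out; those with a lower effect numbered 218, 245, 352, 102 and 175 to 377, and 188 on the arcsine scale. A more negative change before the midpoint than after it was called at 539 genes at a −log10 q of at least 3, 672 with equal-length lists and 412 to 630 with 1 library left out; the opposite at 426 with equal-length lists and 318 to 415. Control territory was kept over 69.7% with equal-length lists. Replicate numbers did not pair the samples (correlation of same-numbered deviations 0.0131 between the day 5 groups, with only 2 pairs); with the replicate number as a block, 389 genes were higher and 3787 lower, and 110 and 289 differed between days. Named genes that changed sign, none of them called higher in the deposited lists, were Pola2 (0.76), Ahcyl1 (5.26), Kdm2b (1.01), Kdm4c (10.3) and Nsd2 (4.81) with equal-length lists; Ahcyl1 (2.59), Kdm4c (7.15) and Nsd2 (1.20) at a −log10 q of at least 3; Mat2a (2.22), Ahcyl1 (10.8), Kdm2b (4.85), Kdm4a (14.7), Kdm4c (11.6), Nsd2 (9.81), Ash1l (4.92), Riox1 (0.31), Tcf12 (2.42) and Eya4 (12.7) after centring, and Mat2b, which ranged from -1.60 without control replicate 1 to 2.65 without control replicate 2. Sign changes after centring follow from its construction, which adds 16.7 points to every difference; the cause of the others was not tested. With a lone library in a group, limma takes its spread from the other groups. Depth is unknown, so weak peaks near the authors' threshold limit every value of cover.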
